A study of Glycine max with 36 samples.

Results

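Soybean leaves sprayed with bentazon were compared with leaves sprayed with water 4 h after spraying. Bentazon RNA and water RNA of that time shared no array. The comparison therefore ran through atrazine RNA, over 3 arrays that set bentazon against atrazine and 3 that set atrazine against water, which makes 6 of the 36 arrays of the study. For each of the 3 replicates the log ratios of both arrays were added to give a path sum, and of the 19200 probes on the array 17743 had a path sum in at least 2 replicates. Of these, 16024 had it in all 3 replicates and 1719 in exactly 2.

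The bentazon plants were sprayed with bentazon and the atrazine plants with atrazine, each as a mist at a dose recorded only as 22 to 25 mM for both herbicides together. The water plants received water with 1% of the adjuvant Herbimax. The adjuvant is recorded for the water spray alone, so a herbicide effect here cannot be told apart from one of dose or adjuvant. All plants were cultivar Williams 82, about 2 weeks old, grown in a greenhouse at 25 °C with 16 h of light, and each RNA came from a pool of the 3 leaflets of the first trifoliate leaf. The 12 RNAs of the study (3 treatments at 1, 2, 4 and 8 h) were joined in a closed loop of two-colour cDNA arrays. The labels do not say whether the 3 replicates came from separate sowings, so p-values measure only the spread between these samples.

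Bentazon and atrazine both block photosynthetic electron transport by binding the D1 protein of photosystem II in place of plastoquinone, which leaves chlorophyll excited and gives rise to reactive oxygen. Soybean tolerates bentazon, which its leaves hydroxylate through cytochrome P450 enzymes and then join to glucose, whereas atrazine injures it. Glutathione transferases, which couple electrophilic compounds to glutathione, and ABC transporters, which export such products across membranes, are the other classes of plant enzyme known for handling herbicides.

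The deposited values are log ratios. Neither their numerator channel nor their log base is stated in the sources at hand, and they are taken as log2. Their sign was kept as deposited and coded as bentazon minus water. A positive value means more bentazon RNA if the dye of the RNA named first (Cy3) is the numerator, and more water RNA if the other dye (Cy5) is. Values are therefore said to lie on the positive or the negative side, and no direction of expression is given. Values on opposite sides differ in opposite directions whichever dye is the numerator.

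A linear model of 11 RNA differences plus a dye effect was fitted to each probe over the whole loop (limma). This dye term enters a path sum with both arrays and was taken off by the fit, which moved the value of a probe by a median of 0.128 log2 units, with a 95th percentile of 0.389. Each of the 6 arrays held values for 17187 to 18405 probes. Replicate 3 stood apart: the path sums of replicates 1 and 2 correlated at 0.764 across probes, those of replicates 1 and 3 at 0.486 and those of replicates 2 and 3 at 0.476 (Pearson, probes not being independent). Array weights, that of bentazon with atrazine before that of atrazine with water, were 0.771 and 1.28 for replicate 1, 2.01 and 1.69 for replicate 2, and 0.382 and 0.588 for replicate 3.

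Of 17062 probes tested, 2287 differed between bentazon and water at 4 h (13.4%, limma, Benjamini-Hochberg adjusted p under 0.05). The positive side held 1193 of them (6.99%) and the negative side 1094 (6.41%). The called probes of the 2 sides were alike in number and unlike in size. Over all probes tested, called or not, values ran from -5.98 to 6.49, so the contrast in size is one of called probes. Of the 98 probes called with a value of at least 3 log2 units, 86 were positive and 12 negative, and all 31 called probes of at least 4 were positive. The path sums had the same sign in every replicate for 2174 of the 2287 called probes (95.1%), against 8089 of all probes tested (47.4%). The calls rest on the same arrays, so a higher share among them follows from the selection and is no independent support. Without replicate 1 the count was 342, of which 70.5% were positive, and without replicate 2 it was 1075, of which 60.4% were positive, against 52.2% with all arrays. Without replicate 3 it was 2519. With arrays weighted by their own precision it was 3788.

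Most of this response has no gene name here. A name beyond a placeholder was at hand for 780 of the tested probes (4.57%), from 368 genes, and 130 of these probes were called, 58 positive and 72 negative. Of the 20 called probes of largest value on the positive side 17 were unnamed, and 18 of the 20 on the negative side. The largest positive value, 6.49 ± 0.587 (SE), belonged to the unnamed probe Gm05344cDNA18kA, with path sums of 6.14, 6.41 and 6.31. The largest negative value among called probes, -3.93 ± 0.586, belonged to the unnamed probe Gm07612cDNA18kA, with path sums of -4.58, -5.54 and -1.59.

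Among named probes the largest value was that of PDR12 (probe Gm06470cDNA18kA), which belongs to the pleiotropic drug resistance group of ABC transporters. Its path sums were 5.89, 6.19 and 3.53 in replicates 1, 2 and 3, and the fitted value was 5.24 ± 0.587 (SE, limma adjusted p = 3.25e-07). All 3 replicates lay far from 0, replicate 3 lowest. Named genes were kept only if their path sums had the same sign in every replicate, so agreement in sign is no support for them. SARK, a receptor-like kinase named for its association with leaf senescence, had path sums of 5.26, 4.28 and 4.79 and a fitted value of 4.53 ± 0.612 (limma adjusted p = 6.3e-06).

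Next came glutathione transferases. GSTL3, of the lambda class, had path sums of 4.12, 3.92 and 4.97 and a fitted value of 4.46 ± 0.439 (limma adjusted p = 2.79e-08). GSTU30, of the tau class, had path sums of 4.02, 4.06 and 3.61 and a fitted value of 3.74 ± 0.531 (limma adjusted p = 1.34e-05). LOC548029 (GSTU59), also of the tau class, had path sums of 3.40, 3.65 and 2.10 and a fitted value of 3.35 ± 0.555 (limma adjusted p = 9.97e-05). No replicate of these 3 genes came near 0.

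A second tier of positive values lay between 2.44 and 2.66. It held SCB1, a BURP-domain protein first described in the seed coat, and BZIP126, a basic leucine zipper transcription factor whose path sums of 3.46, 2.40 and 1.52 gave 2.60 ± 0.286. It also held a protein kinase, LOC547791 (PK), the beta-amylase LOC547684 (BMY1), the seed maturation protein PM34, and WRKY27, a WRKY transcription factor. OAS-TL3, an O-acetylserine (thiol) lyase that makes cysteine, was the most even of them, with path sums of 2.61, 2.45 and 2.62 and a fitted value of 2.46 ± 0.405 (limma adjusted p = 9.12e-05). In PM34 and WRKY27 replicate 3 was far lower than the others, at 1.08 and 0.95 against 2.65 to 3.81 in replicates 1 and 2. The calls of PM34 and WRKY27 were lost without replicate 1 (limma adjusted p = 0.0581 and 0.0508), and that of LOC547684 (BMY1) without replicate 1 (0.32) or replicate 2 (0.0584).

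On the negative side the largest named value was that of VPE2, a vacuolar processing enzyme, which is a cysteine protease that matures vacuolar proteins. Its path sums were -4.48, -3.53 and -4.65 and its fitted value was -3.88 ± 1.17 (limma adjusted p = 0.0249). The sums were even while their parts were not. In replicates 1 and 2 the arrays of bentazon with atrazine gave -0.30 and -0.35 and those of atrazine with water -4.18 and -3.18, whereas replicate 3 gave -4.54 and -0.11. The call was lost with arrays scaled to equal spread (0.0586), with a robust variance prior (0.0552), and without replicate 1 (0.241) or replicate 2 (0.0846).

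COPZ1, a coatomer subunit of vesicle coats, followed at -2.84 ± 0.493, with path sums of -3.28, -4.29 and -0.86. PK3, a protein kinase, had path sums of -2.21, -2.13 and -2.44 and a fitted value of -2.73 ± 0.424. MIPS, the myo-inositol phosphate synthase that opens inositol synthesis, had path sums of -2.09, -3.06 and -2.83 and a fitted value of -2.60 ± 0.503 (limma adjusted p = 0.000626). Of these 3 genes, all negative in every replicate by the naming rule, COPZ1 was the least even.

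CYP93E1, a P450 of soyasaponin synthesis, had path sums of -2.81, -3.39 and -1.92 and a fitted value of -2.54 ± 0.42. F3H, the flavanone hydroxylase that leads to flavonols and anthocyanins, had path sums of -2.47, -2.86 and -1.01 and a fitted value of -2.31 ± 0.381. The remaining 6 named genes on this side lay between -1.99 and -1.56. They were GF14B, a 14-3-3 protein, ADR11, named as an auxin-down-regulated gene, the peroxidases PRX2B and PRX2, the cell wall invertase CWINV, which splits sucrose outside the cell, and the transcription factor DREB3. Their path sums, negative by the naming rule, lay between -2.98 and -0.95. Of these 6, GF14B lost its call without replicate 1 (limma adjusted p = 0.143), and ADR11 without replicate 1 (0.164) or replicate 2 (0.057). PRX2 lost it without replicate 1 (0.1) or 2 (0.0531), as did DREB3 (0.255 and 0.109).

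**Figure D1:**
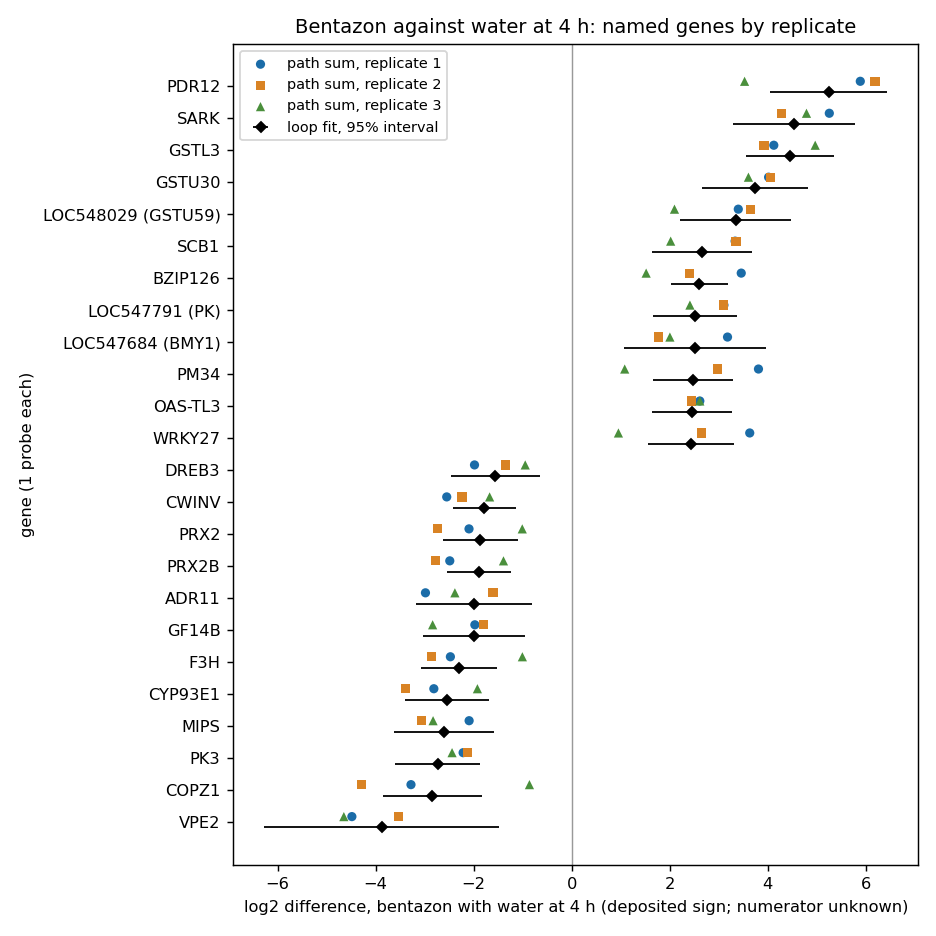
Log2 difference of bentazon with water at 4 h, with the deposited sign, for the 12 named genes of largest value on each side of 0 (1 probe per gene). Coloured marks are the path sums of replicates 1, 2 and 3, and black diamonds are loop fit values with 95% intervals. Path sums of PDR12 reach from 3.53 to 6.19, and the interval of VPE2 is the widest.

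Several probes of the array carry the same gene name, and they often differed. Of 63 genes with a called probe and more than 1 tested probe, 6 had all their probes called on the same side, and 6 of the 88 genes with a called probe had calls on both sides. MIPS was among the even ones, with its 3 other probes called between -2.35 and -2.07. F3H had 7 of its 8 other probes called on the negative side, the lowest at -2.15, and 1 not called at -0.10. By contrast, SARK had 1 other probe called at -1.25 and another not called at -0.41. LOC547791 (PK) had 1 called at -1.03, OAS-TL3 1 called at -0.95 and PM34 1 called at -0.92, each against a positive main probe. The other probe of GSTL3 was at -0.78 and those of GSTU30 at -0.02 and 0.24, none of them called. Probes are cDNAs, to which transcripts of related family members can bind, and which family member a probe reports was not tested. A value given for a gene is therefore that of a probe.

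The path has 2 steps, and many of the named genes were called on only 1 of them. VPE2 (limma adjusted p = 0.27 between bentazon and atrazine, 0.0617 between atrazine and water), GF14B (0.0845 and 0.0668) and DREB3 (0.112 and 0.116) were called on neither. On the step from bentazon to atrazine, PDR12 measured 5.85, 4.87 and 3.12 on its 3 arrays, with a fitted value of 4.64 ± 0.436 (limma adjusted p = 4.63e-09). On the step from atrazine to water it measured 0.04, 1.32 and 0.41, with a fitted value of 0.61 (95% interval -0.28 to 1.50, limma adjusted p = 0.373). GSTL3 measured 4.19, 3.28 and 4.47 on the bentazon and atrazine arrays and -0.06, 0.64 and 0.50 on the others. Its fitted values were 4.04 ± 0.326 for bentazon with atrazine and 0.42 (interval -0.24 to 1.09) for atrazine with water. In both genes the ranges of the 2 steps did not overlap.

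GSTU30 was at 3.76 ± 0.394 between bentazon and atrazine and at -0.02 (interval -0.82 to 0.78) between atrazine and water. LOC548029 (GSTU59) was at 2.88 and at 0.46 (interval -0.38 to 1.30), and OAS-TL3 at 2.73 and at -0.27 (interval -0.88 to 0.34). The main probes of these genes thus differed between the herbicides. Any atrazine difference of these probes from water was not detectable and lies within the intervals given. Another probe of OAS-TL3 was called between atrazine and water, at -0.64 (limma adjusted p = 0.0431), and not between the herbicides, at 0.28 (0.478). The other probe of GSTL3 was also called between atrazine and water, at -0.73 (0.0202). By their main probes, SARK, BZIP126, LOC547791 (PK) and WRKY27 were called on both steps, on the positive side each time. SARK was at 3.06 ± 0.454 between bentazon and atrazine and at 1.47 ± 0.454 between atrazine and water, and BZIP126 at 1.87 ± 0.212 and 0.73 ± 0.212. Between atrazine and water, 1 other probe each of SARK and LOC547791 (PK) was called negative, at -1.10 (limma adjusted p = 0.0123) and -1.37 (5.21e-06). Between bentazon and atrazine, the other probe of BZIP126 was called negative, at -0.53 (0.0167). The other probe of WRKY27 was called on neither step.

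The other group lay on the step from atrazine to water. MIPS measured -3.46, -3.37 and -3.23 on its arrays of atrazine with water (fitted value -3.32 ± 0.373, limma adjusted p = 9.54e-08). It measured 1.37, 0.30 and 0.40 on those of bentazon with atrazine, where the fitted value was 0.72 (interval -0.04 to 1.48). COPZ1 was at -3.16 between atrazine and water and at 0.31 (interval -0.43 to 1.06) between the herbicides. PK3 was at -2.50 and at -0.23 (interval -0.87 to 0.41), CYP93E1 at -2.29 and at -0.25 (interval -0.89 to 0.38), and CWINV at -1.97 and at 0.19 (interval -0.29 to 0.67).

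On the positive side SCB1 lay likewise, at 2.27 between atrazine and water and 0.39 (interval -0.37 to 1.15) between bentazon and atrazine, as did LOC547684 (BMY1) at 3.02 and -0.51 (interval -1.59 to 0.57). For these genes a difference between the herbicides of up to the bounds of each interval was not detectable. ADR11 was the only one of the 12 negative genes called between the herbicides, at -1.72 ± 0.427, with -0.27 (interval -1.14 to 0.60) between atrazine and water. Both steps share the atrazine RNA of each replicate, so their errors are linked: deviations of the 2 arrays from their replicate means correlated at -0.343, -0.0868 and -0.211 across probes in replicates 1, 2 and 3.

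**Figure D2:**
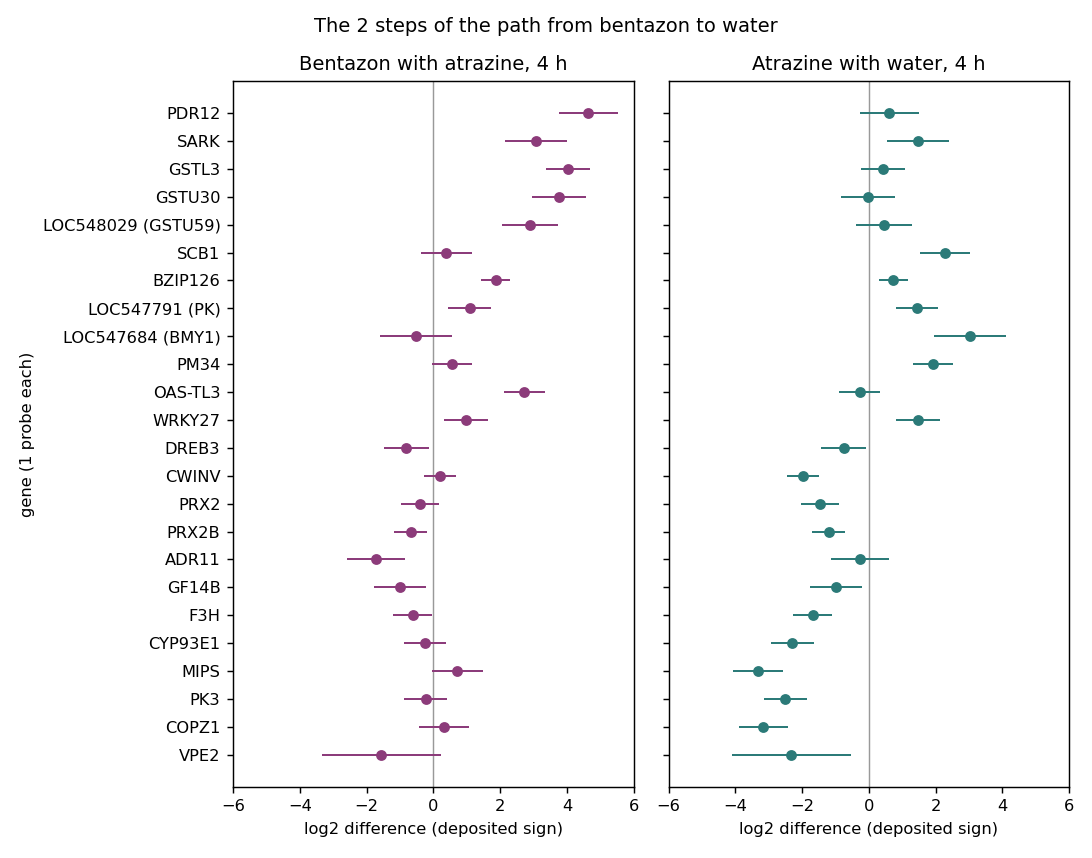
Fitted log2 differences, with the deposited sign and 95% intervals, of bentazon with atrazine at 4 h (left) and of atrazine with water at 4 h (right) for the same 24 genes. PDR12, the glutathione transferases and OAS-TL3 stand away from 0 on the left and near it on the right, and MIPS, COPZ1, PK3, CYP93E1 and CWINV the other way round.

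Over all probes, 1849 of 17062 differed between bentazon and atrazine at 4 h (10.8%), 998 positive (5.85%) and 851 negative (4.99%). Of these, 666 had a value of at least 1 log2 unit. The count was 405 without replicate 1 and 902 without replicate 2. PDR12, GSTL3 and GSTU30 were the largest named genes on the positive side. On the negative side stood MMP2, a matrix metalloproteinase, the pathogenesis-related protein PR-10 and histone H4. MMP2 measured -3.83, -2.76 and -2.39 between bentazon and atrazine (fitted value -3.13 ± 0.593, limma adjusted p = 0.000507) and -1.14 between bentazon and water, where it was not called (adjusted p = 0.388). PR-10 measured -1.01, -3.86 and -1.58 (fitted value -2.23) and H4 measured -0.76, -3.27 and -1.67 (fitted value -1.84). In PR-10 and H4 replicate 2 stood far below the others, and both calls were lost without it (limma adjusted p = 0.123 and 0.186). Both were also lost from the 3 arrays of bentazon with atrazine alone (0.0716 and 0.069). The same held with the loop of each replicate solved on its own (0.101 and 0.105). MMP2 lost its call without replicate 1 (0.0829).

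The gene lists were described by how many of their tested probes were called and by their median, beside 13.4% called and a median of -0.00987 over all probes, and 16.7% called and a median of -0.0902 over the probes with a usable name. Of 27 glutathione transferase probes, 6 were called positive and 1 negative, with a median of 0.239. The positive ones belonged to 5 genes: GSTL3, GSTU30, LOC548029 (GSTU59), LOC547583 (GSTU18) at 1.42 and GSTF5, of the phi class, with probes at 2.00 and 1.35. The negative one was LOC547581 (GSTU21), with path sums of -1.20, -1.45 and -1.24 and a fitted value of -1.38 ± 0.265 (limma adjusted p = 0.000584). The other 20 probes were not called, and lay between -0.78 and 0.89. Without replicate 1, 4 were called positive and 1 negative. Between bentazon and atrazine 7 of the 27 probes were called, all positive.

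No P450 probe was called positive among 22 tested, against 6.99% of all probes. The list had 13.6% of its probes called in all, near the 13.4% over all probes. With so few probes, the lack of a positive call is not read as a result about P450 genes. The 3 called negative were 2 probes of CYP93E1 and AOS1, the allene oxide synthase of jasmonate synthesis, at -1.49 ± 0.37 with path sums of -1.95, -1.70 and -0.86. AOS1 lost its call without replicate 1 (limma adjusted p = 0.193). Without replicate 3, 2 P450 probes were called positive beside 3 negative. Of 7 glycosyltransferase probes 1 of UGT1 was called positive, at 1.56, and IF7GT, which adds glucose to isoflavones, negative, at -1.10. Neither was called without replicate 1 (0.0703 and 0.12), and IF7GT was not called without replicate 3 (0.067). The other probes of UGT1, at 0.38, -0.11 and -0.16, were not called.

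Membrane transporters had 5 positive and 4 negative calls among 18 probes. Besides PDR12, the positive ones included the plasma membrane aquaporin PIP2-6, with 3 probes called positive and 1 negative. The probe of smallest p had path sums of 1.48, 1.87 and 1.93 and a fitted value of 1.70 ± 0.271. The negative ones included 3 probes of SPCP1, listed as a tonoplast aquaporin (TIP), one of which was at -1.46 ± 0.292. Its call was lost without replicate 1 (limma adjusted p = 0.0858) or 2 (0.0647). The list had 3 positive and 0 negative calls without replicate 1, and 5 and 2 without replicate 2 or without replicate 3.

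No probe of the light reactions was called, among 10 tested, against 13.4% of all probes. They lay between -0.62 and 0.91 with a median of 0.0377, and came from the chlorophyll-binding proteins CAB3 and LOC547819 (LHCP) and the photosystem I subunit PSAD. With so few probes, the lack of a call is not read as a result about light reaction genes. Of 15 probes of chlorophyll, haem and PEP carboxylase genes, 2 were called positive and 1 negative (20%), with a median of 0.251. The early light-induced protein ELIP, which appears in leaves under excess light, was called at 1.51 ± 0.384, with path sums of 1.90, 1.84 and 0.60. SGR1, the stay-green protein of chlorophyll breakdown, was called at 1.17 ± 0.341, with path sums of 1.24, 1.34 and 0.49. Both were on the positive side in every replicate and lowest in replicate 3, and both calls were lost without replicate 1 (limma adjusted p = 0.155 and 0.327). SGR1 also lost it with no dye term taken off (0.0668). Other probes of SGR1, at 1.09 and 0.52, were not called. The negative call was PEPC17, at -1.30. It was lost with no dye term taken off (limma adjusted p = 0.115) and without replicate 1 (0.412) or 2 (0.153).

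Of 30 probes of antioxidant enzymes, 3 were called positive and 8 negative, with a median of -0.188. The positive ones were the catalases CAT4, at 1.02, and CAT5, at 1.40, and the ferritin SFERH-4, an iron store, at 2.16 with path sums of 2.39 and 2.52 in replicates 1 and 2 and none in replicate 3. The negative ones were both probes of the peroxidase PRX2B, at -1.89 and -1.73, 1 of PRX2, 2 of the ascorbate peroxidase APX1, at -1.18 and -0.89, APX2 at -0.99, the ferritin H-1 at -1.71, and a second probe of CAT5 at -0.84. Ferritins and CAT5 thus had values on both sides. Without replicate 1 the counts were 0 positive and 1 negative, and without replicate 2 they were 2 and 2.

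Genes of phenylpropanoid and flavonoid synthesis had 1 positive and 14 negative calls among 83 probes, with a median of -0.253. The negative calls came from 4 genes: 8 from F3H, 3 from the flavonol synthase FLS1 at -1.49, -1.36 and -1.04, 2 from the chalcone isomerase CHI1A at -1.27 and -0.88, and 1 from the coumarate-CoA ligase 4CL4. The probe of 4CL4 had path sums of -1.75, -2.03 and -1.81 and a fitted value of -1.51 ± 0.301. HIDH, a dehydratase of isoflavone synthesis, was the positive call at 1.37, and was not called without replicate 1 (limma adjusted p = 0.141) or 2 (0.328). Without replicate 1, 5 negative calls were left in the list, and without replicate 2, 4.

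Jasmonate and ethylene genes had 0 positive and 7 negative calls among 49 probes, with a median of -0.511. The lipoxygenase LOC547835 (loxA) gave 5 of the 7, between -1.59 and -1.28, and its remaining probe, not called, was at -1.31. VLXC, a vegetative lipoxygenase, was at -1.20, and AOS1 is also in this list. None was called without replicate 1, 2 were without replicate 2, and 14 without replicate 3.

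Carbohydrate genes had 1 positive call, LOC547684 (BMY1), and 5 negative calls, 4 from MIPS and 1 from CWINV, among 12 probes. The 2 probes of XET1, a xyloglucan endotransglycosylase that remodels the cell wall, were the only ones called among 15 of the cell wall list, at 2.15 and 1.67. The probe of larger value had path sums of 1.56, 2.23 and 1.56. Chaperones had 4 positive and 0 negative calls among 11 probes, 3 from the DnaJ-type PM37, the highest at 2.66, and 1 from the endoplasmic reticulum chaperone BIP4 at 0.86. None of these 4 was called without replicate 1, and BIP4 lost its call under 7 of the 12 alternatives.

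Transcription factors had 9 positive and 5 negative calls among 80 probes and kinases and calcium signalling 5 and 5 among 30, with medians of -0.0802 and -0.284. Besides BZIP126 and WRKY27 the positive transcription factors included SEP1 at 1.36, EREB at 1.08, BZIP117 at 1.06, BZIP77 at 0.98, BZIP36 at 0.94, WRKY13 at 0.92 and NAC3 at 0.83. The negative ones included DREB1-like at -1.23 and both probes of MYB68, the lower at -1.16. Among kinases SARK, LOC547791 (PK) and the calcium-dependent protein kinase CDPK-GAMMA, at 1.81, were positive. PK3 and the nodulation receptor kinase NARK, at -0.90, were negative, as were other probes of SARK, at -1.25, and LOC547791 (PK), at -1.03. Without replicate 1, 1 transcription factor and 2 kinase probes were called positive and 0 and 1 negative. The calls lost included DREB1-like (limma adjusted p = 0.122), MYB68 (0.116) and NARK (0.343).

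Amino acid and nitrogen genes had 3 positive calls and 1 negative call among 46 probes, namely OAS-TL3 on both sides and both probes of the aminotransferase AAT, at 1.05 and 0.83. Proteases and senescence genes had 2 and 2 among 16, from SARK on both sides, the cysteine protease CP3 at 1.11 and VPE2. No probe was called among 17 of defence and proteinase inhibitors, 11 of translation and 10 of histones and cytoskeleton, against 13.4% of all probes. In lists this small the lack of a call is not read as a result. Lipid metabolism had 1 negative call among 18, the desaturase FAD3C at -1.30. The defence list had 1 negative call without replicate 2, and 1 positive and 1 negative without replicate 3. Of the tissue markers, 0 of 16 leaf probes, 1 of 3 root nodule probes (ENOD40B at 1.60) and 1 of 23 seed probes (the glycinin GY1 at 0.94) were called. Seed markers had 2 negative calls and 0 positive without replicate 2, and 1 of each without replicate 3. Without replicate 1 the calls of AAT (limma adjusted p = 0.29), CP3 (0.111), FAD3C (0.353), ENOD40B (0.2) and GY1 (0.235) were lost. Log ratios show a change of a marker between RNAs and not its level, so the tissue itself could not be checked against them.

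**Figure D3:**
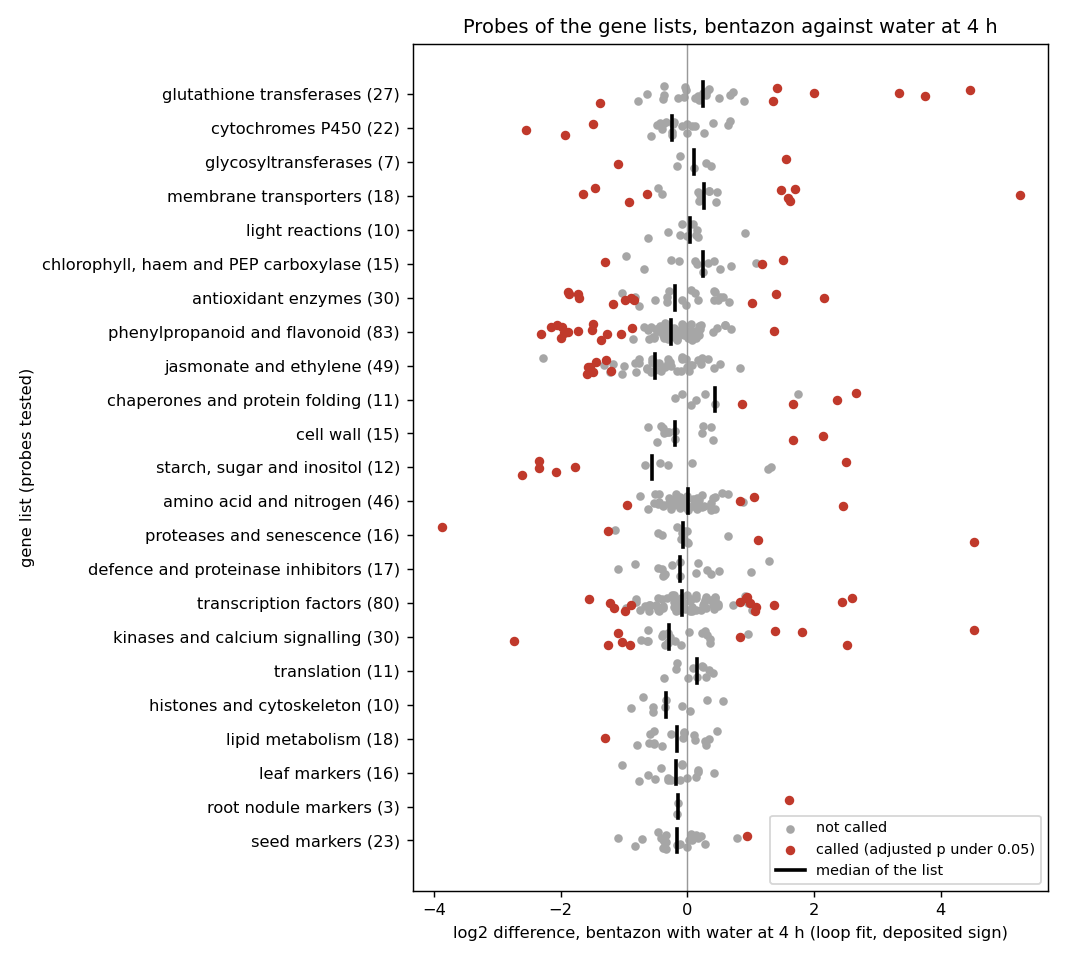
Fitted log2 difference of bentazon with water at 4 h, with the deposited sign, for each tested probe of the gene lists (number of probes in brackets). Red points were called and grey points were not, and the black bar is the median of the list. Light reaction, translation, histone and leaf marker probes hold no red point, and the glutathione transferases have 3 red points above 3.

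The same genes were followed through the hours. Bentazon and water shared an array at 1 and 8 h, and were 2 arrays apart at 2 h as at 4 h. PDR12 measured 4.00, 5.86, 5.24 and 1.17 after 1, 2, 4 and 8 h. GSTL3 measured 3.04, 4.41, 4.46 and 2.73 at these times, and SARK 3.01, 4.39, 4.53 and 1.73. These were large at every time up to 4 h and smaller at 8 h, though for GSTL3 the change from 4 to 8 h was not called (limma adjusted p = 0.0821). OAS-TL3 measured 0.49, 1.17, 2.46 and 1.13, SCB1 -0.16, 1.15, 2.66 and 0.88, and F3H 0.01, -0.74, -2.31 and -1.57. MIPS measured -0.39, -1.29, -2.60 and -1.54, and COPZ1 -0.09, -1.41, -2.84 and -1.91. For these 5 the value at 4 h was the farthest from 0 of the 4, while VPE2, at -0.10, -1.42, -3.88 and -3.45, stayed near its 4 h value at 8 h. The change from 4 to 8 h was called for none of the 5. Its limma adjusted p was 0.178 for OAS-TL3, 0.139 for SCB1, 0.5 for F3H, 0.446 for MIPS and 0.511 for COPZ1.

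Whether the 4 h difference was unlike that at 2 h was tested directly, and 1 probe was called (0.00586%, 1561 at an unadjusted p under 0.05). It was the unnamed Gm01710cDNA18kA, at 0.76 at 2 h and -1.16 at 4 h, a difference of -1.92 ± 0.267 (limma adjusted p = 0.000731). None of the 24 named genes was called. The number of called probes was 65 with no dye term taken off, 271 from path sums alone and 0 without replicate 1 or 3. The difference between 4 and 2 h was 1.28 (95% interval 0.24 to 2.33) for OAS-TL3, -1.32 (-2.61 to -0.02) for MIPS and 0.05 (-1.09 to 1.18) for GSTL3. Both times run over 2 arrays each, and the median SE of this difference was 0.363, against 0.287 for the 4 h value.

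The 8 h difference was unlike that at 4 h for 250 probes (1.47%), 38 positive (0.223%) and 212 negative (1.24%). PDR12 had the largest such difference among named genes, -4.07 ± 0.682 (per replicate -5.88, -3.66 and -2.49, limma adjusted p = 0.00197). It was -2.80 for SARK and -2.55 for LOC548029 (GSTU59) (limma adjusted p = 0.0365 each), -2.05 for BZIP126 (0.00154) and -1.98 for WRKY27 (0.0365). All 5 were nearer to 0 at 8 h. SODB, an iron superoxide dismutase, was the only gene that the naming rule gave on the positive side, at -0.33 at 4 h and 1.28 at 8 h, a difference of 1.61 ± 0.375 (per replicate 1.89, 1.60 and 1.28, limma adjusted p = 0.0213). Without replicate 1 no probe was called (limma, 947 at an unadjusted p under 0.05), and without replicate 2, 74 were.

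**Figure D4:**
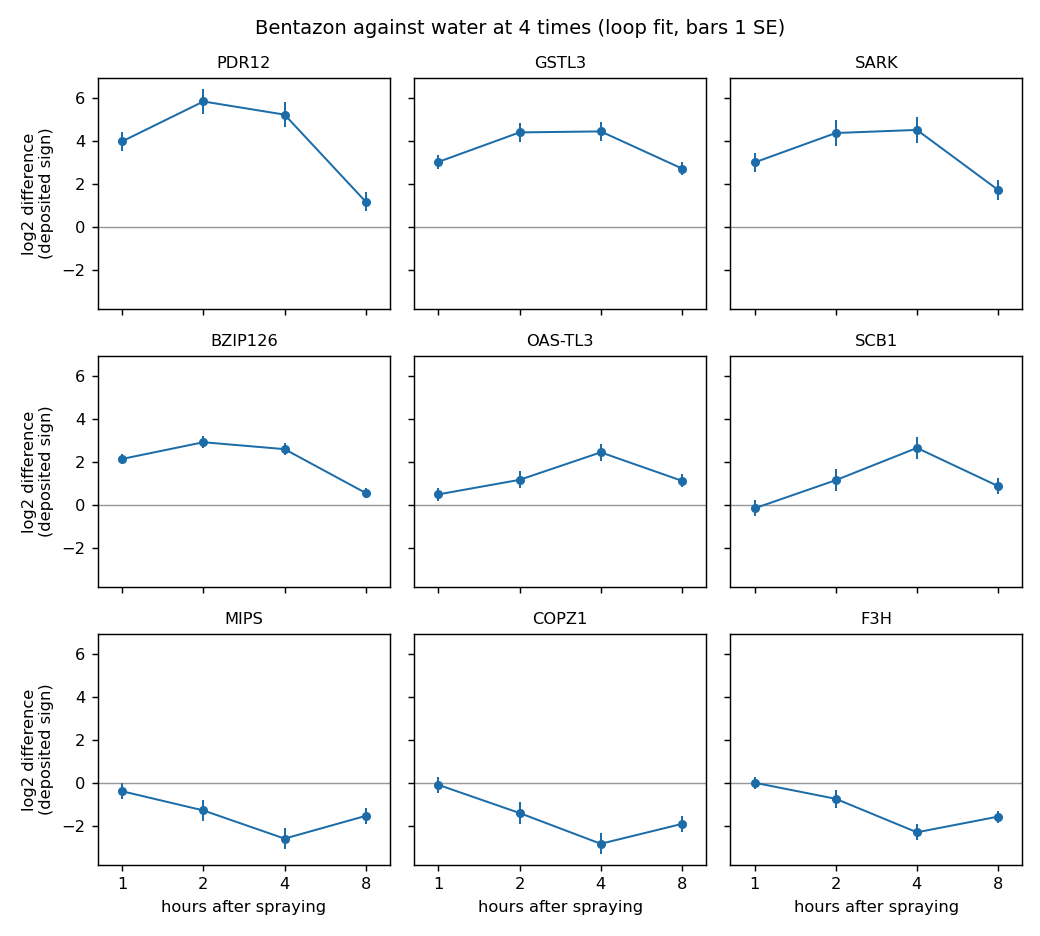
Fitted log2 difference of bentazon with water, with the deposited sign, at 1, 2, 4 and 8 h after spraying for 9 of the named genes, with bars of 1 SE and a common vertical axis. PDR12, SARK, GSTL3 and BZIP126 have their larger values at 2 and 4 h, and SCB1, OAS-TL3, MIPS, COPZ1 and F3H are farthest from 0 at 4 h. Changes of these last genes between 2 and 4 h, and between 4 and 8 h, were not called.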

How the data were processed

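Per the labels' protocols, total RNA was labelled with Cy3 or Cy5 and hybridised to two-colour cDNA arrays, and the authors deposited 1 log ratio for each probe of an array, a unit read as log2. How arrays were normalized and corrected for background, and which log base and numerator were used, is not given in the sources used here. No intensities were used, so the number of arrays limits the precision. Array means of the 6 arrays lay between -0.0183 and 0.00337. Natural logs would rescale every size alike and leave the tests as they are.

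From these values, 1 linear model per probe with 11 RNA differences and 1 dye term was fitted to all 36 arrays, missing values being left out exactly. Its variances were moderated by limma 3.58.1 (R 4.3.3), which gave 7.56 prior degrees of freedom beside 24 residual ones. Tests were two-sided, with Benjamini-Hochberg adjustment over the 17062 probes measured in 2 or 3 replicates of every one of the 12 array types. Of the 17743 probes with path sums, 738 were not tested. The fit was tested on simulated data. It assumes that the dye effect of a probe is common to all arrays. Technical dye-swap repeats are mentioned in the design text, yet each comparison has a single orientation in every replicate. Had such repeats been averaged, the dye term would not hold.

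Replicate numbers were not used as pairs in the loop fit, but path sums, per-replicate differences and the naming rule joined arrays by them. Over 162 pairs of same-numbered arrays sharing no RNA the median correlation of deviations was 0.011 (-0.41 to 0.43). That check leaves out arrays that share an RNA. It cannot decide whether these may be taken as independent, which the fit assumed. For the 2 arrays of the path, which share atrazine RNA, deviations correlated at -0.343, -0.0868 and -0.211 in replicates 1, 2 and 3. The probe annotation lists 1 gene for 1158 probes (527 genes, 523 matched by gene ID to the RefSeq table of Glycine_max_v4.0), several for 13 and none for 18029. A probe without a gene is unnamed here. Named genes are those called with path sums of the same sign in every replicate, 1 probe per gene (smallest p), the 12 of largest value per side, and for each list up to 2 per side by smallest p, with PDR12, GSTL3, SARK and VPE2 always given. Other list members are named where a count needed them, after their values were seen. The comparison, members and lists were chosen with earlier results of these data known. Genes were placed in lists by hand from their symbols, and no list was tested. Plots were made in Python 3.11.15 (matplotlib 3.10.9).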

Additional observations from a re-analysis of the deposited data

Results flagged for a closer look

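The difference of bentazon from water was itself compared between times, with a test of the change. Between 2 and 4 h it changed for 1 probe, which is unnamed (limma adjusted p = 0.000731). That count depended on the fit: 65 with no dye term taken off, 271 from path sums alone and 0 without replicate 1 or 3. Between 4 and 8 h the difference changed for 250 probes. They included PDR12 (8 h minus 4 h, -4.07), SARK (-2.80) and LOC548029 (GSTU59) (-2.55), all nearer to 0 at 8 h, SODB (1.61), and also BZIP126 (-2.05) and WRKY27 (-1.98). The first 4 were picked by the naming rule, which requires the same sign in every replicate, so their agreement in sign is no support. Leaving out replicate 1 left no probe called, BZIP126 and WRKY27 included. The limma adjusted p was then 0.448 for PDR12, 0.876 for SARK, 0.873 for LOC548029 (GSTU59) and 0.578 for SODB. With a robust prior SARK was at 0.0659 and LOC548029 (GSTU59) at 0.0612, and with arrays scaled to equal spread at 0.0931 and 0.0723. Without replicate 2, LOC548029 (GSTU59) was at 0.0639 and SODB at 0.213, and without replicate 3 SARK was at 0.0712. With no dye term taken off, SARK was at 0.0501, LOC548029 (GSTU59) at 0.155 and SODB at 0.0624.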

How the results depend on the processing

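For bentazon with water at 4 h, the 24 named genes kept their side of 0 under the 12 alternatives, and 16 were called under each that held their probe (4 genes lack a value on some array and are absent from the fit of complete probes). The other 8 lost the call without 1 replicate, and VPE2 also under array scaling and a robust prior. Of 42 called list members given as examples, 25 lost their call without replicate 1, 12 without replicate 2 and 2 without replicate 3. The count of called probes, 2287, was 3788 with array weights and ranged from 342 to 2519 with 1 replicate left out. The 1849 calls of bentazon with atrazine became 666 with a minimum of 1 log2 unit, 353 from the 3 arrays alone, 271 from loops solved per replicate and 3287 with array weights, and 405 to 1930 with 1 replicate left out. The 1 call of 4 h minus 2 h became 65 with no dye term, 271 from path sums alone, 9 from loops solved per replicate, 2 with scaled arrays and 15 with array weights. With 1 replicate left out it was 0 to 8 (limma, 1098 at an unadjusted p under 0.05 without replicate 1, 1175 without replicate 3). The 250 calls of 8 h minus 4 h became 461 from path sums alone, 139 with scaled arrays and 1099 with array weights, and 0 to 364 with 1 replicate left out (limma, 947 at an unadjusted p under 0.05 for the 0). Positive calls made up 15.2% of these 250, and 39.2% with no dye term. With the replicate number as a block the counts were 2154, 1732, 1 and 218. Among the list examples the block ended the call of BIP4 (adjusted p = 0.0529). Apart from fewer samples or a stricter minimum, the cause of these changes was not tested. Signal over background could not be weighed without intensities.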
